A study of Mus musculus with 12 samples.

Results

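The primitive streak and early mesoderm factors followed here are 10 transcription factor genes, T, Mixl1, Eomes, Mesp1, Gsc, Lhx1, Evx1, Tbx6, Hand1 and Foxf1a, out of 22878 gene symbols in the deposited tables. Each was read as its longest transcript model, in 12 RNA-seq libraries of mouse embryonic stem (ES) cells and cells differentiated from them. DKO cells were labelled SUV420H1_H2 DKO for both H4K20 methyltransferases, KO cells were labelled SUV420H2 KO, and WT cells carry neither change. Each genotype gave 2 libraries of ES cells, 1 library of day 8 of differentiation and 1 library of day 12. All ES cells were kept on gelatin with 1.5 µM of a GSK3 inhibitor, a compound that activates the canonical Wnt pathway, and were passaged to remove feeder cells. The labels repeat that growth text for the differentiated cells and give no differentiation procedure, and they say neither whether a mutant line is 1 clone nor whether both ES libraries of a line were grown as separate cultures. For ES cells the p-values below then measure the spread between these libraries, which may be technical. In differentiated cells day 8 and day 12 stand as the 2 libraries of a genotype. There the spread includes differences between genotypes in the change over days, and fits over all 12 libraries draw on both spreads.

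During gastrulation the primitive streak forms in the posterior epiblast under Wnt3, Nodal and Bmp4 signals, and cells that pass through it become mesoderm and definitive endoderm. T, known as Brachyury, and Eomes are T-box activators of streak genes, and Mixl1 and Gsc are homeobox factors of the streak, with Gsc marking its anterior end. Mesp1 marks the earliest cardiac and cranial mesoderm, Lhx1 is a LIM homeobox factor of anterior streak and axial mesoderm, and Evx1 is a homeobox factor of the posterior streak. Tbx6 acts in paraxial mesoderm, while Hand1 and Foxf1a (current symbol Foxf1) act in lateral plate and extraembryonic mesoderm, and Hand1 also in trophoblast giant cells. T is a known direct target of canonical Wnt signalling in mouse.

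RefSeq promoter sequence (table of build GRCm38.p6) was found for 7 of the 10 genes, that is all but Mixl1, Hand1 and Foxf1a. The 250 bases before the start site are shown for T (chr17:8434173-8434422, plus strand) and Mesp1 (chr7:79793591-79793840, minus strand), because these genes followed each other most closely among the 10 and because theirs were the promoters with a match to the motifs searched. Capitals mark the matches, each line runs 5′ to 3′ and ends at the base before the start site:
T: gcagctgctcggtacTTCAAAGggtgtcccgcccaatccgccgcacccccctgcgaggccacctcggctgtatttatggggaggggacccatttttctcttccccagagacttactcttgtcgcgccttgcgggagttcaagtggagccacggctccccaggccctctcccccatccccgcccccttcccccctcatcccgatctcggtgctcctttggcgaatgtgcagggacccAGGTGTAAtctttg
Mesp1: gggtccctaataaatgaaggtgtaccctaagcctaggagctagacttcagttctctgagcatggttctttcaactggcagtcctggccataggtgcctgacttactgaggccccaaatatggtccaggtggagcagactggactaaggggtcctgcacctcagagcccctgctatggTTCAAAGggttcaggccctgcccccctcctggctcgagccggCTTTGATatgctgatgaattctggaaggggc
The motifs were a TCF/LEF motif written as CTTTGAA or CTTTGAT, a T-box motif written as AGGTGTNA and a FOXH1 motif written as AATNCACA, each searched on both strands with no overlap between the matches found. T held 1 TCF/LEF match at positions -235 to -229, where the line shows TTCAAAG and the opposite strand reads CTTTGAA. It also held 1 T-box match, AGGTGTAA at -14 to -7, on the strand shown. Mesp1 held a TCF/LEF match on the strand opposite to the line at -73 to -67 and another on the strand shown at -31 to -25. Among 32851 promoters of the same length, 7.48% held the TCF/LEF motif, 2.68% the T-box motif and 3.18% the FOXH1 motif. No FOXH1 match lay in the 7 promoters, and a match or its absence in this window describes letters only.

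Between 22542052 and 26677968 reads fell in genes per library. Suv420h2 stood at 3.37 to 8.46 RPKM in the 4 DKO libraries and 3.95 to 10.7 RPKM in the 4 KO libraries, against 25.8 to 33.2 RPKM in the 4 WT libraries, while Suv420h1 was not lower in DKO (4.99 to 8.15 RPKM, against 3.78 to 5.31 RPKM in WT), and reads summed over a transcript do not show a deletion of some exons. RPKM scales the reads of a model by its length in kilobases and by the authors' library total. The 2 ES libraries of a genotype differed beyond counting noise, the ratio of the chi-square statistic to its degrees of freedom being 36.0 in DKO, 14.9 in KO and 3.93 in WT. Pou5f1, Sox2 and Nanog, which define pluripotent cells, were at 67.5 RPKM or more in every ES library. Across 10 pluripotency markers the summed level was 1894 RPKM at day 8 and 1205 RPKM at day 12 in DKO, 1475 and 771 RPKM in KO, and 269 and 206 RPKM in WT, against 2017 to 2981 RPKM in the ES libraries.

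In undifferentiated ES cells the 10 factors were low in all genotypes, and Eomes was the highest of them in each ES library. Eomes stood at 2.52 and 2.45 RPKM in DKO, 1.73 and 2.11 RPKM in KO, and 1.95 and 2.34 RPKM in WT. T stood at 0.0588 and 0.0604 RPKM in DKO, from 5 and 6 reads, at 0.261 and 0.0862 RPKM in KO, and at 0.276 and 0.154 RPKM in WT. Lhx1 had 15 and 12 reads in DKO, 2 and 0 in KO, and 7 and 1 in WT. It was under the floor of 3 reads in KO and in WT replicate 2. Mesp1 stood at 0.134 and 0.268 RPKM in DKO, 0.0795 and 0.0819 RPKM in KO, and 0.161 and 0.0780 RPKM in WT, from 4 to 14 reads, and both mutants overlapped WT. Tbx6 was at 0.505 and 0.421 RPKM in DKO, 0.387 and 0.283 RPKM in KO, and 0.393 and 0.306 RPKM in WT, with both DKO libraries the highest. Gsc was at 0.226 and 0.211 RPKM in DKO, 1.09 and 0.770 RPKM in KO, and 0.518 and 0.501 RPKM in WT.

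**Figure D1:**
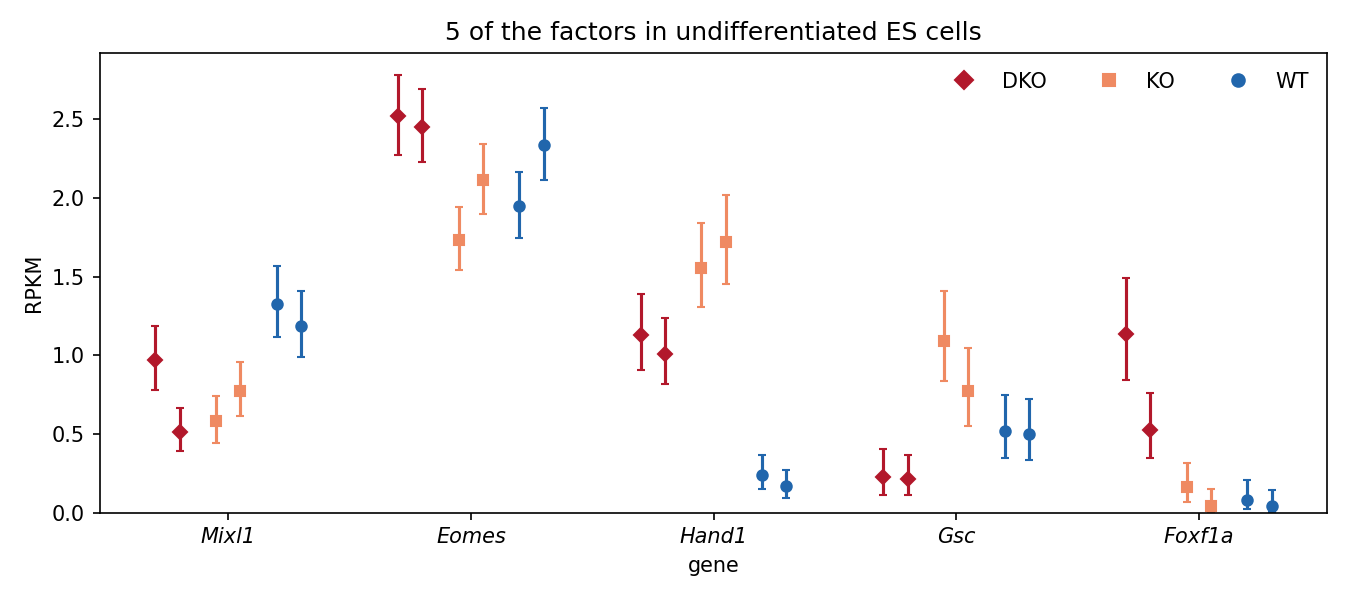
RPKM of 5 of the factors in the ES libraries, 1 point per library (DKO diamonds, KO squares, WT circles), with bars for exact 95% Poisson intervals of the read count, which cover counting error only. Hand1 lay at 1.01 to 1.72 RPKM in the 4 mutant libraries and at 0.166 and 0.240 RPKM in WT, and Foxf1a at 0.524 and 1.13 RPKM in DKO.

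Hand1 was higher in both mutants before differentiation. It stood at 1.13 and 1.01 RPKM in DKO, at 1.56 and 1.72 RPKM in KO, and at 0.240 and 0.166 RPKM in WT. By edgeR's quasi-likelihood test with Benjamini-Hochberg adjustment over 12046 genes, the log2 fold change was 2.40 ± 0.34 (SE) in DKO over WT (adjusted p = 5.48e-05) and 3.05 ± 0.33 in KO over WT (adjusted p = 1.73e-05), and both calls held without any 1 ES library. Mixl1 was lower in KO than in WT, at 0.580 and 0.771 RPKM in KO, against 1.33 and 1.18 RPKM in WT (log2 fold change -0.85 ± 0.32, edgeR adjusted p = 0.0483). This call was lost without either KO library (adjusted p up to 0.262), with DESeq2 (adjusted p = 0.0595) and with the replicate number as a block in edgeR (adjusted p = 0.0648). In DKO, at 0.967 and 0.513 RPKM, the Mixl1 difference from WT missed the threshold (-0.77 ± 0.32, edgeR adjusted p = 0.0507).

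Only Mixl1, Eomes and Hand1 reached 1 RPKM in at least 2 ES libraries and were tested there, so the counts say little of the other 7. In KO over WT 2 of the 3 were called, when 42.7% of all genes tested were, in DKO over WT 1 of the 3, when 63.8% were, and in DKO over KO 0 of the 3, when 67.3% were. In that last comparison 1 member had an unadjusted p under 0.05, Hand1 (log2 fold change -0.65 ± 0.28, edgeR adjusted p = 0.053), and limma on log2(RPKM + 1) gave it an adjusted p of 0.0147. Without the filter on low values, edgeR also called Foxf1a higher in DKO than in WT (adjusted p = 0.000307) and than in KO (0.00155), at 1.13 and 0.524 RPKM in DKO, 0.161 and 0.0415 RPKM in KO, and 0.0818 and 0.0396 RPKM in WT. Gsc was called lower in DKO than in KO (edgeR adjusted p = 0.000732), Lhx1 higher in DKO than in KO (0.0346, from few reads) and Mixl1 lower in DKO than in WT (0.0261). Evx1 was likewise called lower in DKO than in WT (0.00424) and than in KO (4.27e-05), at 0.251 and 0.0788 RPKM in DKO, 0.647 and 0.674 RPKM in KO, and 0.370 and 0.489 RPKM in WT. Genes of chromosome 1, where Mixl1 lies, had a median log2 fold change of -0.57 in KO over WT, and genes of chromosome 11, where Hand1 and Lhx1 lie, one of -0.40 in DKO over WT and 0.12 in KO over WT. Of the trophoblast markers 6 of 6 tested were higher in KO than in WT ES cells (median log2 fold change 2.23, against -0.01 over all genes, of which 23.5% were called higher and 19.2% lower), and the 13 summed to 58.5 and 60.9 RPKM in KO, against 25.4 and 25.6 RPKM in WT. In DKO over WT 2 of these 6 were higher and 3 lower, and the sum was 18.1 and 12.9 RPKM in DKO. Of the lateral plate and extraembryonic mesoderm genes 7 of 9 tested were higher and 1 lower in DKO than in WT (median 2.30, against -0.01 over all genes, of which 32.2% were called higher and 31.6% lower), with a sum of 362 and 279 RPKM in DKO, against 58.5 and 57.9 RPKM in WT, and in KO over WT 4 were higher and 1 lower. The part of these markers in the Hand1 values was not tested. The part of the chromosome-wide shifts in the values of Mixl1, Hand1 and Lhx1 was not tested.

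On differentiation the 7 streak factors T, Mixl1, Eomes, Mesp1, Gsc, Lhx1 and Evx1 reached higher levels in the mutant day 12 libraries than in the WT one, while Hand1 and Foxf1a stayed at 2.51 RPKM or less in every DKO library. In bulk libraries fewer cells of a type and less RNA per cell cannot be told apart. Summed over 6 of them, T, Mixl1, Eomes, Mesp1, Gsc and Lhx1, the level was 10.5 RPKM at day 8 and 124 RPKM at day 12 in DKO, 42.9 and 70.8 RPKM in KO, and 2.09 and 17.6 RPKM in WT. With Evx1 added, it was 10.7 and 133 RPKM in DKO, 52.5 and 86.9 RPKM in KO, and 9.21 and 20.9 RPKM in WT. Summed over Hand1 and Foxf1a, it was 0.903 and 4.77 RPKM in DKO, 95.9 and 180 RPKM in KO, and 323 and 167 RPKM in WT. Of the 10 factors, 2 at day 8 and 9 at day 12 stood at 1 RPKM or more in DKO, 10 on both days in KO, and 4 and 10 in WT. Each day and genotype had 1 library, so values of a single day carry no test.

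**Figure D2:**
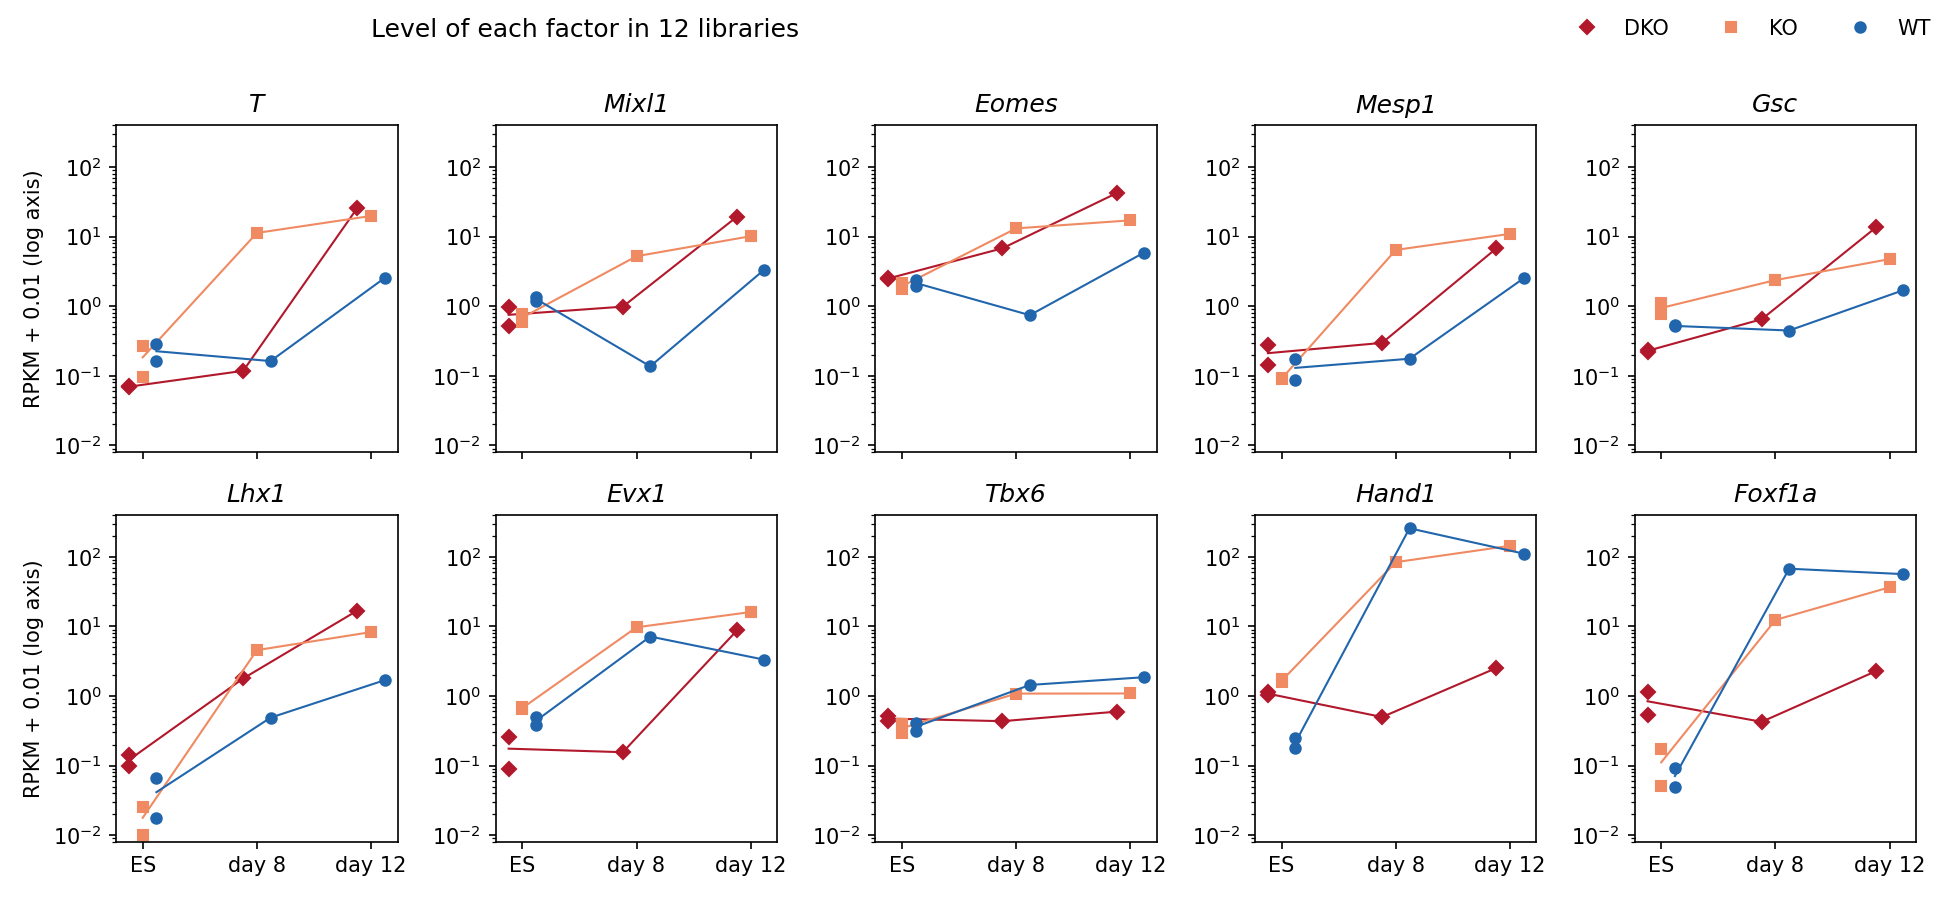
RPKM + 0.01 on a log axis for each of the 10 factors, 1 point per library at ES, day 8 and day 12 (DKO diamonds, KO squares, WT circles), with lines through the mean of the 2 ES libraries. T, Mixl1, Mesp1 and Gsc stayed under 1 RPKM at DKO day 8 and stood at 6.74 to 25.8 RPKM at DKO day 12, and Hand1 and Foxf1a stayed at 2.51 RPKM or less in all DKO libraries.

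T, the T-box factor that defines the streak, stood at 0.108 RPKM at DKO day 8 and 25.8 RPKM at day 12. In KO it stood at 11.2 RPKM at day 8 and 19.8 RPKM at day 12. In WT the levels were 0.152 RPKM at day 8 and 2.54 RPKM at day 12. At day 8 the KO library alone was above all ES libraries, and at day 12 both mutants were above WT, by 10.2-fold in DKO and 7.78-fold in KO. Mixl1, a homeobox factor induced with T, stood at 0.973 and 19.3 RPKM at DKO day 8 and day 12. In KO its levels were 5.20 and 10.1 RPKM. In WT they were 0.127 and 3.35 RPKM, the first from 13 reads and under both WT ES libraries. Eomes, which acts upstream of Mesp1, was at 6.76 RPKM at DKO day 8 and 42.0 RPKM at day 12, the highest value of any of the 6 in the series. KO cells had 13.1 RPKM of Eomes at day 8 and 17.1 RPKM at day 12. WT cells had 0.732 RPKM at day 8, under their ES level, and 5.87 RPKM at day 12. For each of these 3 genes the order at day 12 was DKO, KO and WT from high to low, and at day 8 KO was the highest.

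Mesp1, a basic helix-loop-helix factor of early mesoderm, stood at 0.287 RPKM at DKO day 8, from 14 reads, and at 6.74 RPKM at day 12. In KO it stood at 6.41 and 10.9 RPKM. In WT it stood at 0.166 and 2.50 RPKM. Its day 12 order, with KO above DKO, differed from that of T, Mixl1 and Eomes. Gsc, the homeobox factor of the anterior streak, was at 0.638 RPKM at DKO day 8 and 13.5 RPKM at day 12. KO cells had 2.36 and 4.73 RPKM of Gsc. WT cells had 0.436 and 1.69 RPKM, and their day 8 level lay below both WT ES libraries, at 0.518 and 0.501 RPKM, by less than counting error. Lhx1, needed for the head organizer, stood at 1.77 RPKM at DKO day 8 and 16.9 RPKM at day 12. In KO it was at 4.54 and 8.26 RPKM. In WT it was at 0.478 and 1.68 RPKM. Among the 6 streak genes, Eomes and Lhx1 were the ones at 1 RPKM or more at DKO day 8.

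Evx1, the posterior streak factor, stood at 0.146 RPKM at DKO day 8 and 8.74 RPKM at day 12. KO cells had 9.68 and 16.0 RPKM. WT cells had 7.12 RPKM at day 8 and 3.31 RPKM at day 12, so that WT alone was lower on the later day. Evx1 and Eomes each overlap an annotated antisense gene on the other strand (Evx1os and Gm33460), and without knowing whether counting used strand their reads cannot be told apart from it. The same holds for Foxf1a and Gm27530, a microRNA gene on its other strand. Tbx6, the paraxial mesoderm factor, stayed low everywhere, at 0.424 and 0.585 RPKM at DKO day 8 and day 12. In KO it was at 1.07 RPKM on both days. In WT it was at 1.43 and 1.85 RPKM. Its DKO levels on both days lay next to the DKO ES libraries, at 0.505 and 0.421 RPKM, and below every differentiated KO and WT library.

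Hand1, the factor of heart and extraembryonic mesoderm, stood at 0.488 RPKM at DKO day 8 and 2.51 RPKM at day 12. In KO it was at 83.5 RPKM at day 8 and 144 RPKM at day 12. In WT it was at 256 RPKM at day 8 and 111 RPKM at day 12. At DKO day 8 it was below both DKO ES libraries, and the DKO level was 0.00191-fold of WT at day 8 and 0.0227-fold at day 12. Foxf1a, a forkhead factor of lateral plate mesoderm, stood at 0.415 and 2.26 RPKM at DKO day 8 and day 12. In KO it stood at 12.3 and 36.4 RPKM. In WT it stood at 67.3 and 56.2 RPKM. As with Hand1, the DKO library was the lowest and the WT library the highest at day 8, and at day 12 Hand1 was 1.30-fold higher in KO than in WT while Foxf1a was at 0.648-fold of WT.

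**Figure D3:**
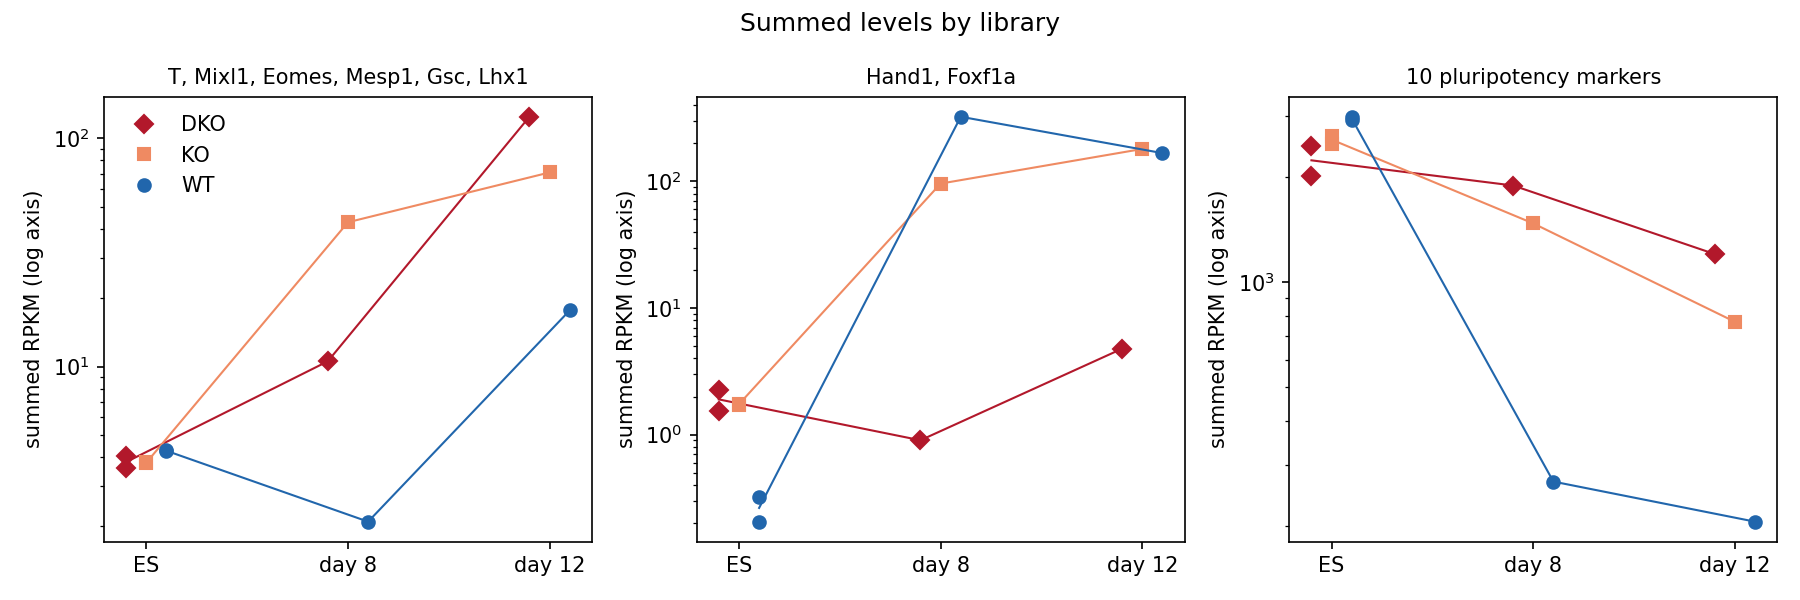
Summed RPKM on log axes, 1 point per library, of T, Mixl1, Eomes, Mesp1, Gsc and Lhx1 (left), of Hand1 and Foxf1a (middle) and of 10 pluripotency markers (right), at ES, day 8 and day 12 in DKO (diamonds), KO (squares) and WT (circles). At day 12 the 6 streak factors summed to 124 RPKM in DKO and 17.6 RPKM in WT, while Hand1 and Foxf1a summed to 4.77 RPKM in DKO and 167 RPKM in WT.

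The balance between the earlier and the later mesoderm factors differed between the genotypes on both days. The ratio of summed Hand1 and Foxf1a to the 6 streak factors was 0.0857 at day 8 and 0.0384 at day 12 in DKO, 2.24 and 2.54 in KO, and 155 and 9.47 in WT. With Evx1 counted among the streak factors the ratio was 0.0845 and 0.0359 in DKO, 1.83 and 2.07 in KO, and 35.1 and 7.98 in WT, so that the WT day 8 value rests largely on whether Evx1 is counted, and the order DKO, KO, WT from low to high was the same. In WT the ratio was lower on the later day, as T, Mixl1, Eomes, Mesp1, Gsc and Lhx1 were higher and Hand1 and Foxf1a lower at day 12 than at day 8. In KO all 8 of these genes were higher at day 12 than at day 8 and the ratio moved little.

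Against ES cells, and over all genotypes, 9 of the 10 factors were higher in differentiated cells, when 20.1% of 13433 genes were called higher. This model gives each factor 1 change for all genotypes and holds no term for day, so a call is not a rise in each genotype. Fitted within a genotype, 4 factors were called higher in DKO, 9 in KO and 5 in WT (10.4%, 15.8% and 31.2% of all genes). Only Mixl1, Eomes and Hand1 would have entered the fit on their ES libraries, and the other 7 entered through differentiated libraries, where they are high, so these counts, here and within each genotype, are descriptions that the filter partly set. Lhx1 (edgeR adjusted p = 0.00119), Evx1 with a log2 fold change of 4.04 ± 0.73 (0.00369), Mesp1 with 4.52 ± 0.95 (0.00667) and T with 5.48 ± 1.40 (0.0144) were called whichever 1 library was left out. Foxf1a (6.33 ± 1.76, edgeR adjusted p = 0.0203), Hand1 (5.63 ± 1.67, 0.0258) and Tbx6 (1.23 ± 0.37, 0.026) lost the call without any WT or KO ES library, Hand1 and Tbx6 also without KO day 12. Eomes (2.19 ± 0.64, edgeR adjusted p = 0.0251) lost it without any KO or DKO ES library or any day 12 library, and Gsc (2.38 ± 0.85, 0.0487) without any ES library, WT day 12 or either KO day, with a log2 fold change of 1.38 without DKO day 12. The largest adjusted p on leaving out 1 library was 0.065 for Foxf1a, 0.0728 for Hand1, 0.0785 for Tbx6, 0.0645 for Eomes and 0.106 for Gsc. Mixl1 missed the threshold (2.50 ± 0.95, edgeR adjusted p = 0.0614). With day 8 libraries alone against ES, edgeR called 2 of the 8 factors tested, when 11.5% of all genes tested were called in either direction.

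Within DKO, 4 of the 10 factors were higher in differentiated than in ES cells, when 10.4% of all genes were called higher. They were Lhx1 (log2 fold change 5.66 ± 0.75, edgeR adjusted p = 0.003), Gsc (3.97 ± 0.76, 0.0116), Eomes (2.70 ± 0.55, 0.0138) and T (5.79 ± 1.59, 0.038). Mixl1 (edgeR adjusted p = 0.0541), Mesp1 (0.0562) and Evx1 (0.0769) missed the threshold. Hand1 (log2 fold change 0.25 ± 0.63, edgeR adjusted p = 0.808) and Foxf1a (0.34 ± 0.62, 0.727) had values with errors larger than the change. Leaving out DKO day 12 lowered T to 1.94 (adjusted p = 0.403) and Gsc to 2.28, and ended the call of Eomes, as did leaving out either DKO ES library for Eomes, Gsc and T. T also lost the call without any other ES library, and Lhx1 kept it throughout.

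**Figure D4:**
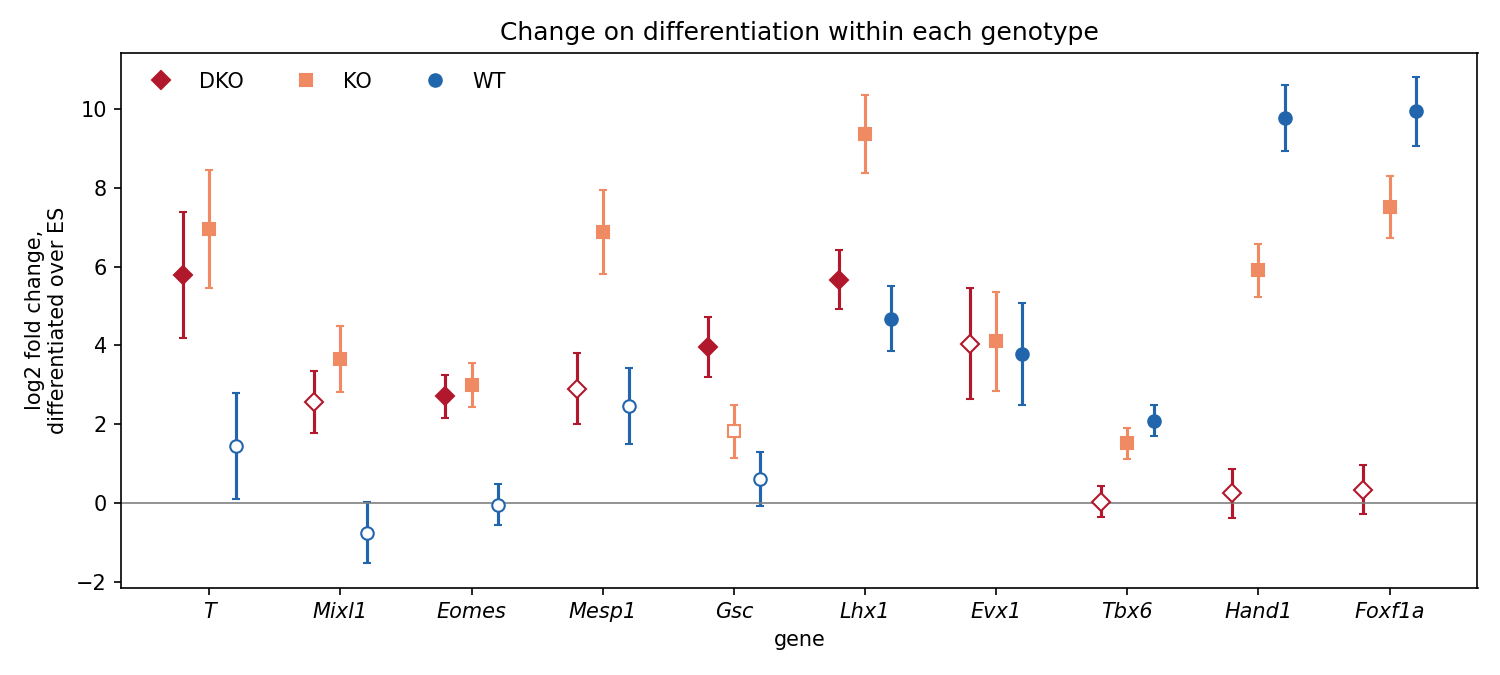
log2 fold change of differentiated over ES cells within DKO (diamonds), KO (squares) and WT (circles) for each factor, with bars of 1 standard error, filled where the edgeR adjusted p is under 0.05. Hand1 and Foxf1a lie at 0.25 and 0.34 in DKO and at 9.77 and 9.94 in WT. The KO value of Lhx1 rests on 2 and 0 reads in ES cells, so its size depends on the prior count of the fit. The same holds for Foxf1a, with 4 and 2 reads in WT and 8 and 2 in KO ES cells. It holds too for Lhx1 in WT, with 7 and 1 reads.

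Within KO, 9 of the 10 factors were higher in differentiated than in ES cells, when 15.8% of all genes were called higher. Foxf1a rose by 7.52 ± 0.79 on the log2 scale (edgeR adjusted p = 0.00113), Hand1 by 5.90 ± 0.68 (0.00138), Mesp1 by 6.87 ± 1.07 (0.00373), and Lhx1 was called from 2 and 0 reads in ES cells (0.00119). These 4 were called whichever 1 library was left out. T (6.96 ± 1.50, edgeR adjusted p = 0.0122), Mixl1 (3.66 ± 0.84, 0.0149) and Eomes (3.01 ± 0.56, 0.00708) lost the call without either KO ES library, with adjusted p up to 0.102, 0.109 and 0.0712, and stood at 3.54, 1.42 and 1.49 without KO day 8. Tbx6 (1.52 ± 0.39, edgeR adjusted p = 0.0231) lost it without any WT or KO ES library or KO day 8 (up to 0.147), and Evx1 (4.10 ± 1.26, 0.0417) without any ES library or either KO day (up to 0.195). Gsc missed the threshold (1.82 ± 0.67, edgeR adjusted p = 0.0736). Foxf1a had 8 and 2 reads in KO ES cells, so the size of its rise depends on the prior count of the fit.

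Within WT, 5 of the 10 factors were higher in differentiated than in ES cells, when 31.2% of all genes were called higher. They were Hand1 (log2 fold change 9.77 ± 0.83, edgeR adjusted p = 5.66e-05), Foxf1a (9.94 ± 0.87, 6e-05), Lhx1 (4.67 ± 0.82, 0.00154), Tbx6 (2.09 ± 0.40, 0.00223) and Evx1 (3.78 ± 1.29, 0.0325). Evx1 lost the call without any ES library or WT day 8, where it stood at 1.52 (adjusted p = 0.285), and the other 4 were called whichever 1 library was left out. T, Mixl1, Eomes, Mesp1 and Gsc were not called over both days together. In WT ES cells Foxf1a had 4 and 2 reads and Lhx1 7 and 1 reads, so the sizes of their changes depend on the prior count. With limma on log2(RPKM + 1) Lhx1 was not called within WT (adjusted p = 0.0708).

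The change on differentiation differed between DKO and WT for 6 of the 10 factors, when 42% of all genes had such a difference. The change was smaller in DKO for Hand1 (difference of log2 fold changes -9.52 ± 1.01, edgeR adjusted p = 0.000367), Foxf1a (-9.60 ± 1.06, 0.000424) and Tbx6 (-2.06 ± 0.55, 0.0182), and larger in DKO for Eomes (2.75 ± 0.75, 0.0192), Gsc (3.35 ± 1.01, 0.028) and Mixl1 (3.32 ± 1.09, 0.039). Of all genes tested 21.1% differed in the higher and 20.9% in the lower direction. These differences also hold the ES levels. In ES cells without the filter, the log2 fold change of DKO over WT was 2.37 for Hand1, 3.69 for Foxf1a and 0.39 for Tbx6. It was 0.20 for Eomes, -1.23 for Gsc and -0.80 for Mixl1. Between differentiated cells DKO over WT was -7.14, -5.89, -1.62, 3.01, 2.16 and 2.61 in the same order of genes. With 4 and 2 reads of Foxf1a in WT ES cells, the size of its difference depends on the prior count of the fit. Foxf1a, Tbx6 and Gsc would not have entered this fit on their ES libraries and came in through differentiated ones. The filter thus partly set their calls, which leaving out a library does not test. Hand1 and Foxf1a kept the call whichever 1 library was left out. Tbx6 lost it without either WT ES library (adjusted p up to 0.0867), Eomes without WT ES replicate 2, either DKO ES library or DKO day 12 (0.103), Gsc without any WT or DKO ES library or either day 12 library of these genotypes (0.12, at 1.64 without DKO day 12), and Mixl1 without any ES library, WT day 8 or DKO day 12 (0.231).

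Between KO and WT the change on differentiation differed for 3 of the 10 factors, when 16.3% of all genes had such a difference. It was larger in KO for Mixl1 (4.41 ± 1.16, edgeR adjusted p = 0.0374) and Eomes (3.05 ± 0.77, 0.033), and smaller in KO for Hand1 (-3.86 ± 0.93, 0.0284), which began from a higher ES level there. Of all genes tested 9.09% differed in the higher and 7.24% in the lower direction. Mixl1 and Eomes lost the call without any ES library, WT day 8 or DKO day 12 (adjusted p up to 0.135 and 0.13), and stood at 2.45 and 1.68 without KO day 8. Hand1 lost it without any WT or KO ES library, DKO ES replicate 1 or KO day 8 (up to 0.115), stood at -2.52 without WT day 8, and was not called by limma on log2(RPKM + 1), with an adjusted p of 0.104. These comparisons with WT share the WT libraries.

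Setting differentiated cells of the genotypes against each other, with day in the model, gave few calls in any gene. Foxf1a was lower in DKO than in WT (log2 fold change -5.89 ± 0.74, edgeR adjusted p = 0.0472), the 1 call among the 10 factors, when 2.19% of 12900 genes were called, and Hand1 missed the threshold (-7.14 ± 1.01, 0.0523). Foxf1a lost the call without any KO or DKO differentiated library (edgeR adjusted p up to 0.299), and Hand1 gained it without either WT one (down to 0.0125). In KO against WT 0 of the 10 and 0% of all genes were called by edgeR, 6 of the 10 had an unadjusted p under 0.05, and DESeq2 called 6 of the 10 and 1834 genes. The largest of those 6 edgeR p-values, 0.046 for Foxf1a, ranked 2874 of 12900 genes, so an unadjusted p under 0.05 was common among all genes. In DKO against KO 0 of the 10 were called, when 0.00775% of all genes were, and 2 had an unadjusted p under 0.05, Hand1 (-6.31 ± 0.96, edgeR adjusted p = 0.203) and Foxf1a (-4.23 ± 0.68, 0.203). By p these 2 ranked 99 and 124 of 12900 genes. In day 12 against day 8, over the 3 genotypes, edgeR called 0 of the 10 and 0% of all genes, 5 of the 10 had an unadjusted p under 0.05, and DESeq2 called 6 of the 10 and 563 genes. The largest of those 5 edgeR p-values, 0.0341 for Gsc, ranked 1139 of 12900 genes.

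Signals that act on the streak were followed in 29 genes, 28 of them tested. Within DKO 11 rose and 2 fell on differentiation, within KO 15 rose and 8 fell, and within WT 13 rose and 9 fell, and the difference between DKO and WT was called higher in DKO for 11 genes and lower for 5. Over all genes 10.4% rose and 9.22% fell within DKO, 15.8% rose and 13.5% fell within KO, and 31.2% rose and 29.8% fell within WT, and the difference was called higher for 21.1% and lower for 20.9%. The median difference of the 28 was 0.13 on the log2 scale, and that of all genes tested was -0.02. Lefty2, a Nodal antagonist and target, stood at 291 and 106 RPKM at DKO day 8 and day 12, against 6.21 and 1.80 RPKM in WT (difference of log2 fold changes 6.70 ± 0.20, edgeR adjusted p = 4.07e-06). Tdgf1, the Nodal coreceptor, was at 256 and 114 RPKM in DKO, against 14.7 and 5.59 RPKM in WT (4.61 ± 0.18, edgeR adjusted p = 2.32e-05). Fgf4, which pluripotent cells secrete, was at 95.3 and 34.1 RPKM in DKO, against 6.32 and 1.97 RPKM in WT (4.18 ± 0.21, edgeR adjusted p = 3.67e-05). These genes are also active in ES cells, where Tdgf1 stood at 153 to 236 RPKM, and the pluripotency markers moved with them: 9 of 10 had a change higher in DKO than in WT. Their part in the values of the streak factors was not tested.

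Other streak, tail bud and paraxial mesoderm genes numbered 26, with 22 tested. Within DKO 4 rose and 1 fell on differentiation, within KO 10 rose and 2 fell, and within WT 14 rose and 3 fell. Compared with WT the change in DKO was higher for 2 genes and lower for 7 (21.1% and 20.9% of all genes), with a median difference of -1.73 on the log2 scale, against -0.02 over all genes. Snai1, the repressor of E-cadherin at streak exit, was at 3.02 and 10.5 RPKM at DKO day 8 and day 12, against 26.8 and 62.8 RPKM in WT (-5.07 ± 0.41, edgeR adjusted p = 0.00014). Foxc1, a forkhead factor of paraxial mesoderm, was at 0.348 and 1.35 RPKM in DKO, against 5.46 and 5.83 RPKM in WT (-6.42 ± 0.85, edgeR adjusted p = 0.000921). Both genes with a higher change in DKO were among the 4 with the smallest adjusted p. Tcf15, a basic helix-loop-helix factor of paraxial mesoderm that ES cells also transcribe, was at 269 and 39.0 RPKM in DKO, against 10.9 and 4.64 RPKM in WT (5.10 ± 0.54, edgeR adjusted p = 0.000356). Dll3, a Notch ligand of the presomitic mesoderm, had a difference of 3.76 ± 0.55 (edgeR adjusted p = 0.00145).

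Lateral plate and extraembryonic mesoderm genes, the group to which Hand1 and Foxf1a belong by role, numbered 24, all tested. Within DKO 3 rose and 1 fell on differentiation, within KO 17 rose and 1 fell, and within WT 21 rose and 1 fell. Compared with WT the change in DKO was lower for 16 genes and higher for 1 (20.9% and 21.1% of all genes), with a median difference of -4.93 on the log2 scale, against -0.02 over all genes. Of the 9 genes of this group tested in ES cells, 7 were higher and 1 lower in DKO than in WT, so this difference also holds the ES levels. Tbx2 stood at 0.353 and 0.845 RPKM at DKO day 8 and day 12, against 33.4 and 13.4 RPKM in WT (-9.10 ± 0.91, edgeR adjusted p = 0.000306). Tbx4, of the allantois and hindlimb, was at 0.761 and 1.52 RPKM in DKO, against 36.0 and 10.7 RPKM in WT (-5.11 ± 0.81, edgeR adjusted p = 0.002). Gata4 and Gata6, shared with endoderm, were at 10.7 and 3.58 RPKM at DKO day 8 and at 121 and 24.1 RPKM at DKO day 12, so that the low level of Hand1 and Foxf1a at DKO day 12 was not shared by all genes of this group.

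Markers of other cell types also differed between the differentiated libraries. The 8 fibroblast and feeder markers summed to 5.29 and 1.94 RPKM at DKO day 8 and day 12, 12.3 and 132 RPKM in KO, and 484 and 310 RPKM in WT, with 0 of the 8 called higher than in ES cells in DKO, 6 in KO and 7 in WT. Among them Lum was at 0 reads at DKO day 12 and KO day 8, and Postn at DKO day 8. The 12 visceral and primitive endoderm markers summed to 44.6 and 549 RPKM in DKO, 24.3 and 352 RPKM in KO, and 376 and 749 RPKM in WT, with 10 called higher in DKO, 6 in KO and 12 in WT, and none at 0. The 8 cardiac muscle markers summed to 5.18 and 2.81 RPKM in DKO, 5.45 and 50.6 RPKM in KO, and 46.3 and 16.0 RPKM in WT, with 0 called higher in DKO, 2 in KO and 5 in WT, with Actc1 at 0 at DKO day 8 and Tnnt2 at DKO day 12. For trophoblast, where Hand1 is also used, the 13 markers summed to 33.9 and 35.6 RPKM in DKO, 141 and 109 RPKM in KO, and 109 and 288 RPKM in WT. Of the 8 tested, 0 were called higher in DKO, 3 in KO and 6 in WT, while Tpbpa, Prl3d1, Prl2c2 and Elf5, which were picked from the 13 after their values were seen, were at 0.328 RPKM or less in every library. The 9 neural markers with a value summed to 56.4 and 56.0 RPKM in DKO, 50.8 and 42.2 RPKM in KO, and 16.2 and 17.9 RPKM in WT, and of the 6 tested 2 fell in DKO, 3 in KO and 4 in WT, with Neurog2 at 0 at DKO day 8 and on both KO days.

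Node and definitive endoderm genes, another fate of the streak, had 3 of 13 genes with a change higher in DKO than in WT and 3 lower, close to the 21.1% and 20.9% of all genes, and within DKO 4 rose, within KO 8 rose and 1 fell, and within WT 8 rose and 1 fell. Nog, a BMP antagonist of the node, had a difference of -5.40 ± 0.59 (edgeR adjusted p = 0.000402), and Shh, secreted by the node, one of -7.09 ± 1.22 (0.0028). Otx2, a homeobox factor of anterior endoderm and epiblast, had a difference of 1.77 ± 0.23 (edgeR adjusted p = 0.000859). Foxa2, a forkhead factor of anterior streak, node and endoderm, stood at 1.93 and 35.7 RPKM at DKO day 8 and day 12, 3.49 and 13.3 RPKM in KO, and 9.05 and 66.8 RPKM in WT. The part of these cell types in the levels of the 10 factors was not tested.

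Over the 12 libraries the 10 factors fell into patterns that followed the values above. The likeness used was the Pearson correlation of log2(CPM + 1), over libraries that share 3 genotypes and 3 time points, so that it describes these libraries only. For T the nearest genes were Mesp1 (r = 0.979), Fgf8 (0.976) and Mixl1 (0.928), and Fgf8 was also among the 3 nearest of Mesp1 (0.951), Gsc (0.922) and Lhx1 (0.926). Fgf8, a growth factor of the streak, stood at 0.699 and 28.4 RPKM at DKO day 8 and day 12, 12.6 and 13.6 RPKM in KO, and 1.06 and 3.0 RPKM in WT. Fgf5, a growth factor of the late epiblast, was the nearest gene of Lhx1 (r = 0.955) and was at 2.83 and 23.6 RPKM in DKO, 6.18 and 3.39 RPKM in KO, and 0.374 and 0.791 RPKM in WT. Eomes and Mixl1 were each other's nearest (r = 0.941). Hand1 was nearest to Tmem65 (r = 0.988), Capn6 (0.982) and Unc5c (0.982), Foxf1a to Unc5c (0.985), Pmp22 (0.985) and Gab2 (0.984), Tbx6 to Isg15 (0.974) and Foxf1a (0.97), and Evx1 to Rftn1 (0.982) and Pdlim3 (0.968). Hand1 and Foxf1a correlated at r = 0.964, and T and Hand1 at r = 0.514.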

How the data were processed

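Polyadenylated RNA of 12 libraries was sequenced on an Illumina platform, per the labels' protocols, and aligned with Bowtie2 to mm9, per the submitters' processing notes. The sources used here name no counter and do not say whether counting used strand. For each transcript model the deposited tables hold whole-number read counts, and the RPKM that the authors made from them with the exon length and a library total. The longest model stood for its symbol.

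The counts went to edgeR 4.0.16 (TMM scaling, quasi-likelihood F test, R 4.3.3). A gene entered a fit when 2 or more of its libraries reached 1 RPKM, and p-values were adjusted by Benjamini-Hochberg over all genes tested, with a threshold of 0.05. The SE is the size of the log2 fold change over the square root of F. The ES fit used 6 libraries. The fit of differentiated genotypes used 6 libraries with genotype and day, so day 8 and day 12 stand as the 2 libraries of a genotype. Differentiated cells were set against ES cells over 12 libraries with genotype and state, and for effects within a genotype, and their differences, with an effect of state in each genotype plus day. Alternatives were DESeq2 1.42.0, limma 3.58.1 on log2(RPKM + 0.1) and log2(RPKM + 1), RLE scaling, no filter, the model with the most reads, all 12 libraries in 1 fit, single libraries left out and a replicate block. Fits with 1 day alone were added after seeing the data. For some of the comparisons the code was run on simulated counts with a fixed dispersion and no effect of day. That check says nothing of how the fits handle the spread in these data. Intervals are exact Poisson intervals (95%) and, like the floor of 3 reads, cover counting error only.

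The 10 genes and the 11 gene lists were chosen with earlier results of these data known. Named genes were the 10 factors, the targeted genes, up to 4 genes per list with the smallest adjusted p in the difference between DKO and WT, and up to 3 genes nearest to a factor by correlation among those reaching 5 RPKM. Fgf8, Fgf5, Gata4 and Gata6 come under these rules, and the cell type markers named for their low levels, and Foxa2, were picked after their values were seen. Map2 of the neural list had no value. Same-numbered ES libraries did not deviate together, the correlation of their deviations from the group means being -0.104 for DKO and KO, -0.0554 for DKO and WT and -0.00588 for KO and WT. Tables and plots were made with Python 3.11.15, pandas 2.3.3 and matplotlib 3.10.9.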

Additional observations from a re-analysis of the deposited data

Results flagged for a closer look

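The change from ES to differentiated cells differed between a mutant and WT, by edgeR's test of that difference, for 6 factors in DKO, when 42% of all genes differed, and 3 in KO, when 16.3% did. In DKO minus WT the difference of log2 fold changes was -9.60 for Foxf1a, -9.52 for Hand1, -2.06 for Tbx6, 2.75 for Eomes, 3.32 for Mixl1 and 3.35 for Gsc. In KO minus WT it was -3.86 for Hand1, 3.05 for Eomes and 4.41 for Mixl1. Such differences hold the ES levels of the genotypes as well as the differentiated ones. The DKO minus WT value of Foxf1a rests on 4 and 2 reads in WT ES cells. In DKO minus WT the calls of Foxf1a, Tbx6 and Gsc were partly set by the filter.

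For 3 factors the level moved in opposite directions from day 8 to day 12 in the mutants and in WT, each time with the Poisson intervals of the days apart. That rule covers counting error only and small changes can meet it. The share of all genes that meet it was not counted, so this is no trait particular to these factors. With 1 library per day and genotype these differences were not tested. As log2 of day 12 over day 8, Evx1 stood at 5.91 in DKO and 0.73 in KO, against -1.11 in WT. Hand1 stood at 2.36 in DKO and 0.78 in KO, against -1.21 in WT. Foxf1a stood at 2.45 in DKO and 1.56 in KO, against -0.26 in WT.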

How the results depend on the processing

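The fold changes followed through the alternatives were those with an unadjusted p under 0.05 in the main fit, plus Hand1 and Foxf1a within DKO. That choice favours stable directions, so the tally is no rate for all fold changes of the 10 factors. Over these 70 fold changes, 985 of 1226 alternative values kept direction and side of the threshold, 132 lost the call, 102 gained it and 7 turned direction. The 7 are all within DKO. With day 8 alone Evx1 stood at -0.094, Hand1 at -1.09 and Foxf1a at -0.93. Leaving out 1 library each, they ranged between -0.21 and 5.67 for Evx1, -1.22 and 1.16 for Hand1, and -0.63 and 0.97 for Foxf1a, the low ends without DKO day 12, and Foxf1a was at -0.10 without DKO ES replicate 2.

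Where no share of all genes stands beside it, a number of factors called is no result particular to the factors. In ES cells the main fits called 42.7% of all genes in KO over WT, 63.8% in DKO over WT and 67.3% in DKO over KO. The number of factors called moved as follows. In ES cells KO over WT (2) gave 1 with DESeq2, limma on log2(RPKM + 0.1) or 12 libraries in 1 fit, DKO over WT (1) gave 2 with limma on log2(RPKM + 1), 4 with no filter and 2 in 1 fit, and DKO over KO (0) gave 1 with either limma fit, 4 with no filter and 3 in 1 fit. In differentiated cells KO over WT (0) gave 6 with DESeq2 and 5 in 1 fit, DKO over WT (1) gave 5 with DESeq2, 7 in 1 fit and 2 with limma, RLE, no filter or the most-read model, DKO over KO (0) gave 3 with DESeq2 and 2 in 1 fit, and day 12 over day 8 (0) gave 6 with DESeq2. Differentiated over ES (9) gave 2 of 8 tested with day 8 alone, and within DKO (4) it gave 7 with DESeq2. Within WT, Mixl1 at -3.38 and Eomes at -1.63 on the log2 scale were lower than in ES cells with day 8 alone. With day 12 alone Mixl1 and Eomes were higher, at 1.32 and 1.36. In fits of 1 day within a genotype, or between genotypes, each differentiated arm is 1 library that is assumed to vary like the ES pairs. Calls in such fits are no replicate check, and the factors called in them are not counted here. The difference of KO and WT (3) gave 6 with DESeq2 and 5 with limma on log2(RPKM + 0.1). Leaving out 1 library gave 1 to 2 for both mutants over WT in ES cells, 0 to 2 for DKO over WT and for DKO over KO in differentiated cells, 4 to 10 for differentiated over ES, 1 to 7 within DKO, 4 to 10 within KO, 4 to 7 within WT, 2 to 7 for the difference of DKO and WT and 0 to 6 for that of KO and WT. In the other comparisons it gave 0.

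Over all genes, DESeq2 called 1834 in differentiated KO over WT, where edgeR called 0 (136 to 161 with limma, 7 with no filter), 3140 in DKO over WT, against 283 (714 to 911 with limma), 1176 in DKO over KO, against 1 (5 to 15 with limma), and 563 between the days, against 0. In 1 fit of 12 libraries these genotype counts were 3697, 5087 and 2229, and in ES cells 2020 for KO over WT, against 5138, and 5089 for DKO over WT, against 7688. Day 8 alone gave 1454 for differentiated over ES, against 4806, and 5422 within DKO, against 2638. Day 12 alone gave 5617 within DKO and 7414 within KO, against 3934. The difference of KO and WT, with 2193 calls, had 3307 with DESeq2, 5228 with day 8 alone and 4776 with day 12 alone. Leaving out 1 library gave 506 to 4543 within DKO, 1008 to 5662 within KO, 391 to 3890 for the difference of KO and WT, 2947 to 6121 for differentiated over ES, 3611 to 6765 for the difference of DKO and WT, 3201 to 6366 for KO over WT in ES cells, and in differentiated cells 0 to 1804 for DKO over WT and 0 to 237 for DKO over KO. The cause of these shifts was not tested.

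The replicate number as a block in ES cells, where the numbers do not pair the libraries, gave 1 factor called in KO over WT, 1 in DKO over WT and 0 in DKO over KO. In differentiated cells 1 library per day and genotype sets the spread. Factors with few reads, such as Lhx1 in ES cells and Foxf1a in KO and WT ES cells, have folds that depend on the prior count.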
